A study of Mus musculus with 2 samples.

Results

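Alveolar type 1 (AT1) cells are the thin, flat cells that form most of the gas-exchange surface of the lung, and alveolar type 2 (AT2) cells are the cuboidal cells that make surfactant and can give rise to AT1 cells after injury. On that path mouse epithelial cells are known to pass through transitional states marked by the keratin Krt8, the claudin Cldn4, the secreted chaperone Clu (clusterin) and the adaptor protein Sfn (14-3-3 sigma). The cells described here were chosen by measured values. A cell barcode with at least 200 genes and at most 15% mitochondrial counts was kept when Ager, Aqp5, Rtkn2, Clic5 and Akap5 together reached 20 UMIs per 10000 (a UMI counts 1 captured mRNA molecule), with at least 2 UMIs of these genes. Kept barcodes also had under 50 UMIs per 10000 of the AT2 gene Sftpc, under 300 per 10000 of the airway secretory gene Scgb1a1, at most 1 UMI of the leukocyte gene Ptprc, and none of the macrophage gene Marco or the endothelial gene Pecam1. This left 64 AT1-gated cells of 4688 that passed the quality filter: 38 of 2346 in the injured library and 26 of 2342 in the control library.

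Both libraries were single-cell 3′ libraries of collagenase-digested whole lung, lavaged and perfused beforehand, from C57BL/6 mice carrying the SP-C I73T allele, a mutation of surfactant protein C. A single oral dose of tamoxifen in corn oil (175 mg/kg) cuts out a neomycin cassette in this line and boosts the mutant protein's expression. By its title and the series' design, the injured library is mutant lung at 14 days after injury. The control library is mutant lung titled control, with no day given. The labels conflict on treatment: the injured title carries the tag untreated, and the control title the tag tamoxifen treated. Groups follow the titles, and every direction below is between the libraries as titled. There was 1 library per group and the number of animals behind each was not given, so no difference has a replicate check and no p-value is given. All 95% intervals cover counting error only. The libraries shared 1 barcode, which no AT1-gated cell carried.

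The 2 sets of AT1-gated cells differed in depth, which bears on every comparison below. The injured cells held between 501 and 36030 UMIs with a median of 11873.5, and the control cells held between 529 and 25723 with a median of 885. The medians over all cells that passed the filter ran the other way, 3361.5 UMIs in the injured and 4513.5 UMIs in the control library. Of the AT1-gated cells, 27 of 38 injured and 4 of 26 control cells had 2000 UMIs or more, and the deepest control cell alone held 43.9% of the 58630 control UMIs (the deepest injured cell held 8.55% of 421474). Levels are summed counts in CPM (counts scaled to the same total in both sets). For the genes and lists that matter most, log2 ratios are also given as a mean at equal weight per cell and without the deepest control cell. One UMI was worth 2.37 CPM for injured cells and 17.1 CPM for control cells.

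**Figure D1:**
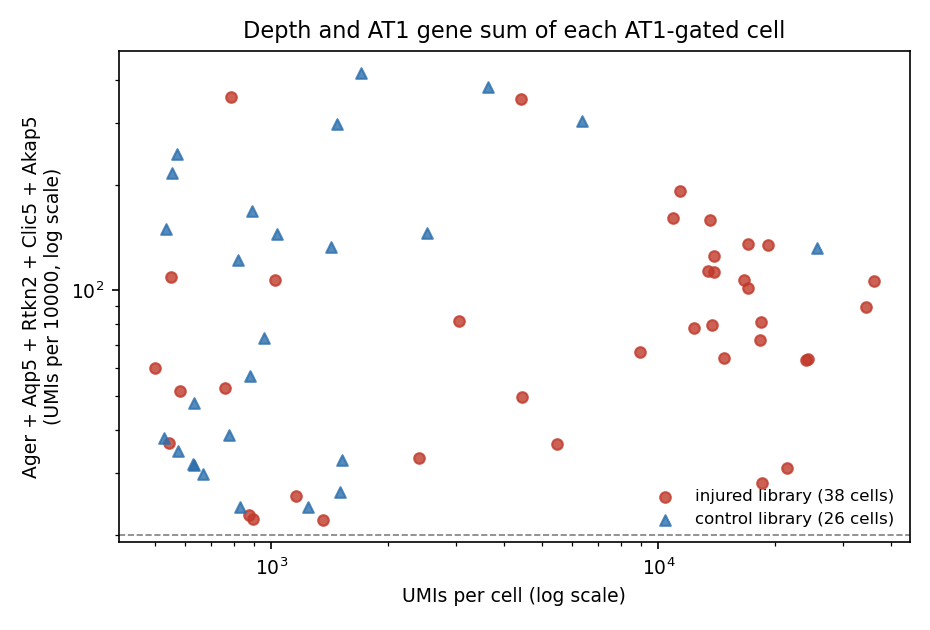
UMIs per cell (x axis, log scale) against the summed Ager, Aqp5, Rtkn2, Clic5 and Akap5 level in UMIs per 10000 (y axis, log scale) for the 38 injured cells (red circles) and the 26 control cells (blue triangles); the dashed line is the gate at 20. The injured cells reach across the whole range of depths with 21 cells at 10000 UMIs or more, where there is 1 control cell.

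AT1-gated cells made up 1.62% of passing cells in the injured library (exact binomial interval 1.15–2.22) and 1.11% in the control library (0.726–1.62), and these intervals overlap. A digest recovers cell types unequally, so these are shares of recovered cells. Among cells of 2000 UMIs or more the share differed by 0.980 percentage points, from 27 injured and 4 control cells. The 3 injured cells just inside the gate floor had 22.1, 22.3 and 22.9 UMIs per 10000 of the 5 gate genes and the 3 just outside had 18.8, 18.4 and 16.6, while the control cells nearest to the floor had 24.0, 24.1 and 26.5 inside and 18.3, 18.1 and 13.4 outside. At 2 or 3 gate UMIs per cell, the gate rested on very few molecules in 7 injured and 9 control cells.

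Over cells of all depths, the name of the cells held less well for the control set, which was also the shallower. Ager, the receptor for advanced glycation end products and a defining AT1 gene, had a UMI in 36 of 38 injured and 20 of 26 control cells. Of the cells without Ager, 1 of 2 injured and 5 of 6 control cells carried UMIs of the endothelial marker list (Cdh5, Cldn5, Calcrl, Egfl7, Ramp2, Tmem100, Ednrb, Car4). The list summed to 17 UMIs in 6 injured cells and 42 UMIs in 11 control cells, and the control cells with 2000 UMIs or more held none of them. At least 2 of the epithelial genes Epcam, Cdh1, Nkx2-1, Cldn18, Cldn3 and Cldn7 were found in 31 injured and 12 control cells. Among cells under 2000 UMIs, Ager had a UMI in 9 of 11 injured and 16 of 22 control cells. Any of these epithelial genes was found in 7 of 11 and 15 of 22, with summed medians of 17.2 and 56.1 UMIs per 10000. Endothelial UMIs still differed at that depth, in 1 of 11 injured and 11 of 22 control cells. Basal cell markers had no UMI in either set. In injured cells, pericyte and muscle markers summed to 0 UMIs, fibroblast markers to 5, T and NK cell markers to 1, B cell markers to 10 and neutrophil markers to 23, and in control cells these lists summed to 3, 6, 3, 1 and 2 UMIs. Macrophage markers summed to 114 UMIs (270 CPM) in injured and 31 UMIs (529 CPM) in control cells. Under 2000 UMIs, the macrophage gene Chil3 had a UMI in 6 of 11 injured and 3 of 22 control cells. One injured cell of 875 UMIs held 15 Chil3 UMIs, 2 gate UMIs and no Hopx. The part that other cell types had in the differences below was not tested beyond the values for cells with epithelial genes.

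The 5 gate genes chose the cells, so their levels are a description. Ager (chromosome 17, 34597862 to 34600936 on the plus strand of GRCm38) had a median of 44.9 UMIs per 10000 in injured cells (lowest 0, highest 351) and of 51.7 in control cells (lowest 0, highest 312), with wide overlap. Its summed level was 6349 CPM in injured and 11990 CPM in control cells. Aqp5, a water channel (chromosome 15, 99590782 to 99594829, plus strand), stood at 1616 CPM in injured and 1484 CPM in control cells. It was found in 25 of 38 injured cells, none of them under 2000 UMIs, and in 13 of 26 control cells, 9 of them under 2000 UMIs. Clic5, an intracellular chloride channel protein that endothelial cells also express (chromosome 17, 44188584 to 44280172, plus strand), stood at 546 CPM in injured and 1245 CPM in control cells. The anchoring protein gene Akap5 (chromosome 12, 76324891 to 76334153, plus strand) had 814 CPM in injured and 938 CPM in control cells. Rtkn2 (chromosome 10, 67979570 to 68059740, plus strand) had 152 CPM in injured and 699 CPM in control cells.

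Outside the gate, a gene was called higher or lower when its level differed at least 2-fold after 20 CPM was added to both sides, among 1872 genes with a mean of at least 100 CPM. By this rule 183 genes (9.78%) were higher and 145 (7.75%) lower in injured AT1-gated cells, and the median log2 ratio of all compared genes was -0.08. Of the 183 higher genes, 135 also passed with each cell weighted the same and without the deepest control cell, and of the 145 lower genes 100 did. Of the 183 higher genes 7 had no control UMI and 48 had 1 to 3, so these rest on few control molecules. These genes reached the mean of 100 CPM only through their injured level, so higher was the only call open to them. The shares over all genes include them. No gene list was tested; counts and medians are set beside these shares of all genes.

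Of the AT1 genes that the gate did not use, none was called higher in injured cells. Of 22 such genes 21 could be compared and 9 were called lower, against 7.75% of all genes, and 8 of the 9 were also lower in both other ways of taking the level. The median log2 ratio was -0.56, with -0.52 at equal weight per cell and -1.22 without the deepest control cell. Hopx, an atypical homeodomain factor of AT1 cells (chromosome 5, 77086988 to 77115121, minus strand), had a median of 21.5 UMIs per 10000 in injured cells (0 to 59.9) and 72.1 in control cells (0 to 351). The ranges overlapped up to 59.9, and the median control cell stood above every injured cell. Hopx summed to 1886 CPM in injured cells (1757–2022, 795 UMIs) and 7471 CPM in control cells (6787–8204, 438 UMIs), 3.96-fold lower (3.52–4.46) in injured cells. Its log2 ratio was -1.97 for all cells, -2.02 at equal weight per cell and -2.59 without the deepest control cell. Restricting both sets to cells with 2000 UMIs or more gave -1.71, to cells under 2000 UMIs -1.78, and to cells with 2 epithelial genes -1.98. Hopx kept its direction in both depth ranges. The range of 2000 UMIs or more was not matched in depth, with medians of 13920 UMIs in injured and 4991.5 UMIs in control cells. At 10000 UMIs or more, Hopx stood at 1840 CPM in 21 injured cells and 2371 CPM in the 1 control cell, a smaller gap. B cells, a cell type outside the epithelium, carried Hopx UMIs in 13.2% of 53 cells of the injured library (median 3419 UMIs). In the control library 16.5% of 321 B cells did (median 4514 UMIs). Ager UMIs were found in 3.77% of the injured-library and 2.49% of the control-library B cells. The source of the Hopx UMIs in B cells was not tested.

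Igfbp2, an insulin-like growth factor binding protein that marks mature AT1 cells in mice (chromosome 1, 72824503 to 72852474, plus strand), was nearly missing from the injured set. A single UMI was counted in 1 of 38 injured cells, and 59 UMIs were counted in 8 of 26 control cells, 43 of them in 1 cell. The levels were 2.37 CPM in injured and 1006 CPM in control cells, a ratio of 424-fold lower with an interval of 73.2 to 17033, and 0 of the 27 injured cells with 2000 UMIs or more held a UMI. The deepest control cell had none either. The log2 ratio was -5.52 for all cells, -3.95 at equal weight per cell and -6.34 without the deepest control cell. After thinning each cell to 1000 UMIs, Igfbp2 was found in 0 of 30 injured cells, which allows up to 10% of cells with a UMI at that depth (3 counts, no limit on cells expressing the gene), and in 5 of 11 control cells (45.5%, 16.7–76.6).

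The other 7 AT1 genes called lower differed by smaller factors than Igfbp2. Pdpn, the membrane glycoprotein podoplanin, stood at 90.2 CPM in injured cells (38 UMIs) and 495 CPM in control cells (29 UMIs), 5.49-fold lower (3.26–9.13). Among cells under 2000 UMIs its log2 ratio was -0.94, just inside the 2-fold limit. At 10000 UMIs or more Pdpn ran the other way, at 75.6 CPM in 21 injured cells and 38.9 CPM (1 UMI) in 1 control cell. Cav1, which encodes the caveolae protein caveolin-1 in AT1 and in endothelial cells, stood at 56.9 CPM in injured and 614 CPM in control cells, 10.8-fold lower (6.26–18.9), and at a log2 ratio of -2.73 when 2 epithelial genes were required. Sec14l3 was 6.03-fold lower (4.36–8.33), the axon guidance ligand gene Sema3e 4.44-fold (2.45–7.87), the cytochrome P450 gene Cyp2b10 3.51-fold (2.01–5.98), the proteoglycan gene Spock2 2.82-fold (1.59–4.81) and the actin-binding protein gene Limch1 2.22-fold (1.52–3.17). Spock2 was the gene of the 9 that did not pass with each cell weighted the same, at a log2 ratio of -0.52.

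Other AT1 genes were at similar levels in both sets. Cldn18, the main claudin of the alveolar epithelium, stood at 4171 CPM in injured cells (3978–4371) and 4179 CPM in control cells (3672–4736), although its log2 ratio was -1.62 in cells under 2000 UMIs alone, and the membrane protein gene Emp2 at 3647 CPM in injured and 2968 CPM in control cells. The type IV collagen gene Col4a3 had 313 CPM in injured and 273 CPM in control cells, and the keratin gene Krt7 had 1378 CPM in injured and 1330 CPM in control cells. The receptor gene Gprc5a had a log2 ratio of 0.72 for all cells and 1.58 without the deepest control cell, and Lmo7 had 0.63 and 1.71. Vegfa, the growth factor by which AT1 cells signal to alveolar capillaries, had 293 UMIs in injured and 60 UMIs in control cells and a log2 ratio of -0.54, which passed the fold limit with each cell weighted the same (-1.40) and without the deepest control cell (-1.22).

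The transitional genes ran the other way. Of 25 genes on this list 16 could be compared, and 11 were called higher and 0 lower, against 9.78% of all genes called higher; 8 of the 11 also passed in both other ways of taking the level. The exceptions were S100a6, Lgals3 and the matricellular gene Ccn2. Genes with few or no control UMIs, such as Nupr1, Hbegf and Sfn, entered the comparison only through their injured level and could only be called higher. The median log2 ratio was 1.33 for all cells, 1.69 at equal weight per cell and 1.54 without the deepest control cell, and Nupr1, at 0 in control cells, left it at 1.33 when placed at the bound of 3 counts.

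Krt8, an intermediate filament keratin of simple epithelia (chromosome 15, 101996698 to 102004482, minus strand), had a median of 14.97 UMIs per 10000 in injured cells (0 to 73.4) and of 0 in control cells (0 to 37.4). 32 of 38 injured and 10 of 26 control cells held a UMI, so most control cells were at 0, but the highest control cell was above the median injured cell. The sums gave 1969 CPM in injured cells (1838–2108, 830 UMIs) and 733 CPM in control cells (531–988, 43 UMIs), 2.69-fold higher (1.98–3.74). The log2 ratio of Krt8 was 1.40 for all cells, 1.85 at equal weight per cell and 1.47 without the deepest control cell. At cells of 2000 UMIs or more it was 1.18, and under 2000 UMIs 1.72. Krt8 was still found after thinning to 1000 UMIs in 66.7% of 30 injured cells (47.2–82.7), against 36.4% of 11 control cells (10.9–69.2), and these intervals overlap. B cells held Krt8 UMIs in 1.89% of injured and 0.935% of control cells, unthinned.

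Clu (chromosome 14, 65968483 to 65981547, plus strand) showed the widest gap of the 4 marker genes in UMIs. It summed to 1909 UMIs in 28 of 38 injured cells and 14 UMIs in 4 of 26 control cells, with a median of 23.3 UMIs per 10000 and a highest value of 338 in injured cells, against a median of 0 and a highest value of 8.01 in control cells. The median injured cell thus lay above every control cell. The levels were 4529 CPM in injured cells (4328–4737) and 239 CPM in control cells (131–401), 19.0-fold higher (11.3–34.8) in injured cells, and 10 of the 14 control UMIs were in the deepest control cell. The log2 ratio of Clu was 4.14 for all cells, 5.34 at equal weight per cell and 5.01 without that cell. In cells under 2000 UMIs the gap rested on 4 UMIs in 11 injured cells and 1 UMI in 22 control cells. After thinning to 1000 UMIs, Clu was found in 86.7% of injured cells (69.3–96.2), against 27.3% of control cells (6.02–61.0), and these intervals do not overlap.

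Cldn4 and Sfn were found in 1 control cell each. Cldn4, a tight-junction claudin (chromosome 5, 134945119 to 134946934, minus strand), was found in 23 of 38 injured cells with up to 39.1 UMIs per 10000, and in 1 of 26 control cells, the deepest, at 1.94 per 10000. Its level was 579 CPM in injured cells (509–656, 244 UMIs) and 85.3 CPM in control cells (27.7–199, 5 UMIs), 6.79-fold higher (2.87–21.1). The log2 ratio of Cldn4 was 2.51 for all cells, 3.78 at equal weight per cell and 4.90 without the deepest control cell. No cell under 2000 UMIs in either set held a Cldn4 UMI, so at that depth no difference was detectable. Sfn (chromosome 4, 133600556 to 133602168, minus strand) had UMIs in 26 of 38 injured cells and 1 of 26 control cells, at 429 CPM in injured cells (369–497, 181 UMIs) and 17.1 CPM in control cells (0.432–95.03, 1 UMI). That is a ratio of 25.2 with an interval from 4.46 to 999.9, and a log2 ratio of 3.60 for all cells, 4.49 at equal weight per cell and 3.16 without the deepest control cell. In cells under 2000 UMIs Sfn had 7 UMIs in 5 of 11 injured cells and 0 UMIs in 22 control cells. B cells carried Sfn UMIs in 24.5% of cells in the injured library (61.3 CPM) and in 21.2% in the control library (56.1 CPM), and Cldn4 UMIs in none. The control level of Sfn in AT1-gated cells rested on 1 UMI, and its interval contains the level of control-library B cells. Thinned to 1000 UMIs, Cldn4 was found in 30% of injured cells (14.7–49.4) and Sfn in 26.7% (12.3–45.9), and both in 0 of 11 control cells, which allows up to 27.3% of cells with a UMI at that depth.

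**Figure D2:**
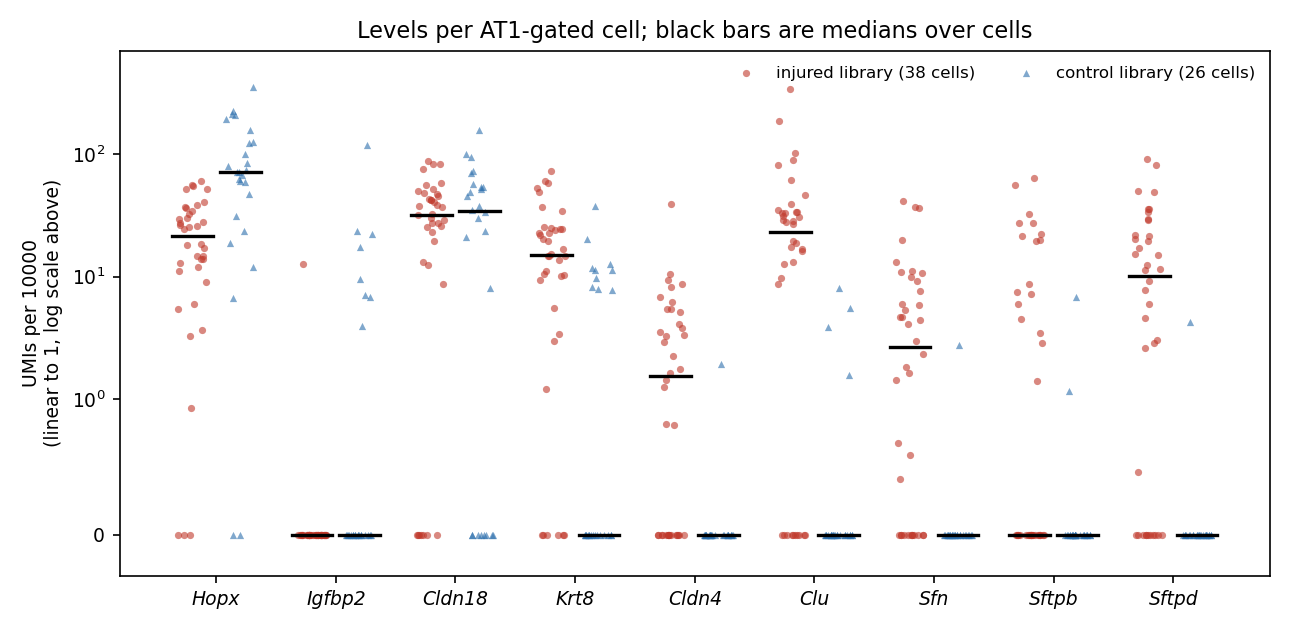
Level of 9 genes in each AT1-gated cell in UMIs per 10000 (y axis, linear to 1 and log scale above), injured cells as red circles on the left and control cells as blue triangles on the right of each gene, with black bars for the medians over 38 and 26 cells. Hopx has the higher median in control cells (21.5 in injured, 72.1 in control), and Krt8, Clu and Sftpd have medians above 0 in injured cells and at 0 in control cells.

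The 4 marker genes were seen together in injured cells. All of Krt8, Cldn4, Clu and Sfn had a UMI in 20 of 38 injured and 0 of 26 control cells, and none of them in 3 of 38 injured and 15 of 26 control cells. The other injured cells held 1 (4 cells), 2 (8 cells) or 3 (3 cells) of the genes, and the other control cells 1 (8 cells), 2 (1 cell) or 3 (2 cells). These counts follow depth closely, since the injured cells with 10000 UMIs or more numbered 21 and the control cells of that depth 1.

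Further transitional genes with higher levels in injured cells included a calcium-binding protein, a galectin, a stress regulator and a growth factor ligand. S100a6, a calcium-binding protein, had the largest level of the list at 9744 CPM in injured and 4400 CPM in control cells, 2.21-fold higher (1.95–2.52); its log2 ratio of 1.14 dropped under the limit to 0.83 without the deepest control cell. The galectin gene Lgals3 stood at 1113 CPM in injured and 358 CPM in control cells, 3.11-fold higher (2.01–5.07), also under the limit without that cell (0.85). Nupr1, a stress-induced transcriptional regulator, had 102 UMIs in 11 injured cells and 0 in control cells, at least 4.73-fold higher with the floor set at 3 counts over the control sum. Hbegf, a ligand of the epidermal growth factor receptor, had 75 UMIs in injured and 2 UMIs in control cells, a ratio of 5.22 (1.39–43.9).

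Not all transitional genes differed. Krt18, the filament partner of Krt8, had 1072 CPM in injured and 972 CPM in control cells, a log2 ratio of 0.14. Of its 57 control UMIs, 54 lay in 2 control cells, 36 of them in the deepest, so the near-equal sums rested on these cells. Krt18 UMIs lay in 29 of 38 injured and 5 of 26 control cells, and with each cell weighted the same its log2 ratio came to 1.97. The keratin gene Krt19 had 607 CPM in injured and 529 CPM in control cells, a log2 ratio of 0.19. For the annexin gene Anxa1 the log2 ratio was 0.48 over summed UMIs and 1.44 with each cell weighted the same. Cdkn1a, the cyclin-dependent kinase inhibitor p21, had 318 CPM from 22 injured cells and 426 CPM from 1 control cell: all of its 25 control UMIs lay in the deepest control cell. Its log2 ratio was -0.40 for all cells and 4.08 without that cell, so its direction was set by 1 cell. Cldn3, another claudin, had 419 UMIs in 24 injured cells and 59 UMIs in that same control cell, with a log2 ratio of -0.02 for all cells and 5.66 without it.

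**Figure D3:**
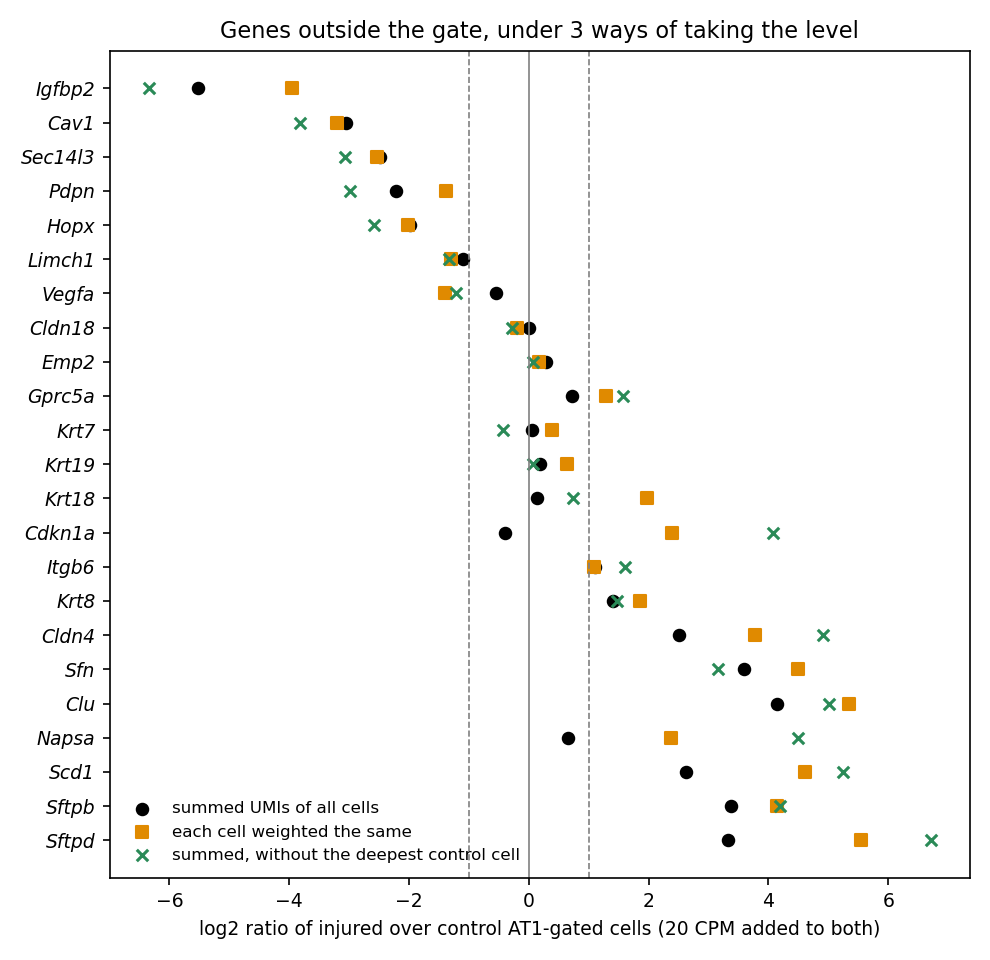
Log2 ratio of injured over control AT1-gated cells (x axis, 20 CPM added to both sides) for 23 genes outside the gate, taken from summed UMIs (black circles), with each cell weighted the same (orange squares) and without the deepest control cell (green crosses); dashed lines mark 2-fold. Igfbp2, Cav1, Sec14l3, Pdpn and Hopx lie left of -1 and Krt8, Cldn4, Sfn and Clu right of 1 in all 3 ways, while Cdkn1a lies at -0.40 in one and at 4.08 in another.

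AT2 genes other than Sftpc were also higher in injured AT1-gated cells. Of 17 listed genes 7 could be compared, 6 were called higher and 0 lower, against 9.78% of all genes called higher. Genes with few control UMIs, such as Sftpa1 and Fasn, entered the comparison only through their injured level and could only be called higher. The median log2 ratio was 2.60, and 5 of the 6 also passed in both other ways of taking the level. The gate put an upper limit on Sftpc (chromosome 14, 70520949 to 70524081, minus strand), which had a median of 0.911 UMIs per 10000 in injured cells (0 to 49.2) and 0 in control cells (0 to 18.02). The limit removed 7 further injured and 4 further control cells that met the rest of the gate. Sftpb, which encodes surfactant protein B, had 378 UMIs in 17 of 38 injured cells and 4 UMIs in 2 of 26 control cells. Its level was 897 CPM in injured cells (809–992) and 68.2 CPM in control cells (18.6–175), 13.1-fold higher (5.09–48.5). The log2 ratio of Sftpb was 3.38 for all cells, 4.14 at equal weight per cell and 4.19 without the deepest control cell. Sftpd, encoding the collectin surfactant protein D, had 873 UMIs in 27 injured cells and 11 UMIs in 1 control cell, or 2071 CPM in injured and 188 CPM in control cells, 11.04-fold higher (6.14–22.2), with log2 ratios of 3.33 for all cells, 5.54 at equal weight per cell and 6.71 without the deepest control cell. These gaps moved with the upper limit on Sftpc: with no such limit the log2 ratio was 1.04 for Sftpb and 2.09 for Sftpd, and the median of the AT2 list was 1.82. Sftpd had a median of 10.2 UMIs per 10000 in injured cells and 0 in control cells, and Sftpb had a median of 0 in both.

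The lipid synthesis genes on the AT2 list followed the same direction. Scd1, a fatty acid desaturase, was 6.51-fold higher (4.04–11.2), the fatty acid synthase gene Fasn had 104 UMIs in injured and 2 UMIs in control cells, a ratio of 7.23 (1.95–60.5), and Lpcat1, which acts in surfactant phospholipid synthesis, was 3.28-fold higher (1.37–10.3). Sftpa1 had 86 UMIs in 6 injured cells and 1 UMI in control cells. Napsa, a protease that processes surfactant protein precursors, had 470 UMIs in injured and 41 UMIs in control cells, 40 of the 41 in the deepest control cell; its log2 ratio was 0.66 for all cells and 4.49 without that cell. Lamp3, a lamellar body membrane gene, was found in 10 injured and 0 control cells, and Lyz1 in none. After thinning to 1000 UMIs, Sftpb was found in 36.7% of 30 injured cells (19.9–56.1), against 9.09% of 11 control cells (0.230–41.3), and these intervals overlap. B cells held Sftpb UMIs in 1.89% of cells in the injured library and 2.49% in the control library, unthinned. No AT1-gated cell was among the 44 cells of each library marked as likely doublets. The score used random pairs of all cells, and the injured library had 38 AT1-gated and 18 AT2-gated cells of 2346. It could thus hardly mark a pair of these 2 types, and such doublets were not tested.

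Set against AT2-gated cells of the same library (Sftpc at 50 UMIs per 10000 or more; 18 injured cells with a median of 1368.5 UMIs and 53 control cells with a median of 1226), the transitional genes were not limited to AT1-gated cells. In injured AT2-gated cells Krt8 stood at 2578 CPM and Clu at 2792 CPM, against 127 CPM of Krt8 and 14.1 CPM of Clu in control AT2-gated cells. The transitional list summed to 23686 CPM in injured AT1-gated and 13809 CPM in injured AT2-gated cells, and to 9296 CPM in control AT1-gated and 1357 CPM in control AT2-gated cells. The other AT1 genes summed to 18820 CPM in injured AT1-gated and 3949 CPM in injured AT2-gated cells, and to 27426 CPM in control AT1-gated and 2206 CPM in control AT2-gated cells. The AT2 list summed to 7153 CPM in injured AT1-gated and 19292 CPM in injured AT2-gated cells, and to 1433 CPM in control AT1-gated and 42840 CPM in control AT2-gated cells, so the injured AT1-gated and AT2-gated sets lay closer to each other on this list than the control sets did. The AT2-gated cells were chosen by Sftpc, and these levels are a description. The macrophage marker list, which includes Lyz2, a gene that AT2 cells also express, summed to 830 CPM in injured and 39644 CPM in control AT2-gated cells. Whether the AT2-gated sets were alike in makeup was not tested.

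Cell by cell, the summed level of the 5 AT1 gate genes had weak correlations with the 4 marker genes in injured cells. Over the 30 injured cells of 1000 UMIs or more, each thinned to 1000 UMIs, the Spearman correlation of the 5-gene AT1 sum was 0.05 with Krt8, -0.08 with Cldn4, 0.17 with Clu and -0.11 with Sfn. With the AT1 genes outside the gate in place of the 5 it was -0.22 with Krt8, 0.17 with Cldn4, 0.08 with Clu and 0.05 with Sfn, and at 2000 UMIs, over 27 cells, -0.30 with Clu and 0.11 with Krt8. Without thinning, over all 38 cells, the 5-gene sum gave 0.19 with Krt8, 0.31 with Cldn4, 0.30 with Clu and -0.16 with Sfn. These points share 1 library, differ in depth before thinning, and the gate cut off the low end of the AT1 sum, so the values are a description with no p-value, and the weak ones are read as no relation found.

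The injured cells were also ordered by the thinned AT1 sum and split into 3 sets of 10 cells. In the lowest set, at 2 to 5 AT1 UMIs per 1000, 5 cells held Krt8 (50%, 18.7–81.3) and 6 held Clu. In the middle set, at 5 to 9 AT1 UMIs, 8 cells held Krt8 and 10 Clu. In the highest set, at 9 to 34 AT1 UMIs, 7 cells held Krt8 (70%, 34.8–93.3) and 10 Clu. Cldn4 was found in 3 cells of each set, and Sfn in 3, 3 and 2 cells. The intervals of the 3 sets overlapped for each of the 4 genes. The median depth before thinning was 8934.5 UMIs in the lowest, 16844 in the middle and 12469 in the highest set.

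**Figure D4:**
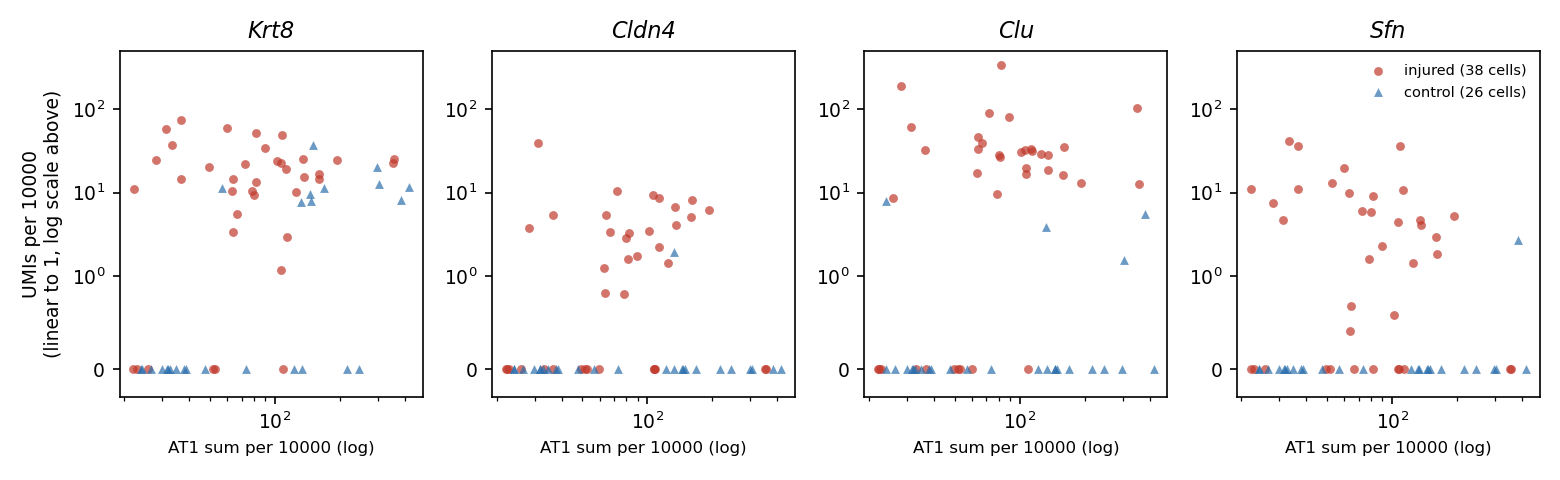
Sum of the 5 AT1 gate genes (x axes, UMIs per 10000, log scale) against Krt8, Cldn4, Clu and Sfn (y axes, UMIs per 10000, linear to 1 and log scale above) in each of 38 injured cells (red circles) and 26 control cells (blue triangles), without thinning. High and low values of the 4 genes occur along the whole range of the AT1 sum in injured cells, with Spearman values from -0.16 for Sfn to 0.31 for Cldn4.

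Some pairs of single genes had larger correlations in injured cells than the 5-gene AT1 sum had with the 4 marker genes. In injured cells thinned to 1000 UMIs, Cldn4 and Sfn had a Spearman correlation of 0.52, with 6 cells holding both. Clu and Krt8 had 0.36, with 19 cells holding both. The other pairs of the 4 marker genes had 0.34 (Cldn4 and Krt8), 0.22 (Krt8 and Sfn), 0.20 (Cldn4 and Clu) and -0.31 (Clu and Sfn). Hopx and Sftpb had -0.45 over 30 cells at 1000 UMIs and -0.60 over 27 cells at 2000 UMIs, and -0.44 without thinning. Hopx and Clu had -0.32, -0.35 and -0.44 at the same 3 depths. The summed AT1 genes outside the gate, Hopx among them, had -0.16, -0.57 and -0.17 with Sftpb, and 0.08, -0.30 and 0.15 with Clu. The single genes Ager and Aqp5 did not have negative values at all 3 depths. Ager had -0.13, -0.21 and 0.08 with the AT2 gene Sftpb, and 0.19, 0.09 and 0.35 with Clu. Aqp5 had 0.16, -0.10 and 0.24 with Sftpb, and -0.02, -0.33 and 0.43 with Clu. The Hopx pairs were among many computed over cells of 1 library, all past the AT1 gate, and their values are a description. In control cells only 11 could be thinned to 1000 UMIs, with Krt8 in 4 of them, and the correlation of the AT1 sum with Krt8 was 0.12. Without thinning, over all 26 control cells, it was 0.68, with Krt8 in 10 of them, among cells of very unequal depth.

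Of 437 genes with a UMI in at least 25% of the thinned injured cells, those most like Krt8 over the 30 cells were Anxa2 (Spearman 0.53), Cdh1 (0.49), Anxa5 (0.47), Chmp2a (0.46), Prkar1a (0.45), S100a6 (0.44), S100a10 (0.43), Krt19 (0.39), Actb (0.37) and Anxa3 (0.37). Anxa2, Anxa5 and Anxa3 encode calcium-dependent membrane-binding annexins, S100a10 the partner of Anxa2, and Cdh1 the adhesion protein E-cadherin. Krt19 and S100a6 were on the transitional list. None of the 5 gate genes was among the 10, and neither were Cldn4 (0.34 with Krt8), Clu (0.36) and Sfn (0.22). Rtkn2 had no UMI in the thinned injured cells and could not be ranked. With 10 of 437 genes shown, absence from the 10 carries no weight.

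Matrix and adhesion genes were higher in part. Of 21 genes on the list of integrins, laminins, matrix and transforming growth factor beta signalling, 11 could be compared, 4 were higher and 1 lower, against 9.78% higher and 7.75% lower over all genes. Itgb6 and Itgav encode the chains of the integrin alpha-v beta-6, which activates latent transforming growth factor beta. Itgb6 had 212 UMIs in 25 injured cells and 13 UMIs in 6 control cells, 2.27-fold higher (1.30–4.33). Its log2 ratio of 1.11 lay under the limit at a gate floor of 40 UMIs per 10000 (0.71), with at least 5 AT1 UMIs (0.94), with 2 epithelial genes required (0.92) and with 100 CPM added (0.91). Itgav had 74 UMIs in injured and 4 UMIs in control cells, 2.57-fold (0.964–9.69), an interval that includes 1. Itgb6 was absent from the 11 injured cells under 2000 UMIs and present in 4 of the 22 control cells of that depth. The laminin chain gene Lama5 was 3.15-fold higher (1.41–8.74), and the mesenchymal filament gene Vim was 6.59-fold lower (2.63–16.3), from 12 UMIs in injured and 11 UMIs in control cells. Of 10 genes linked to the YAP pathway 5 could be compared, and Ccn1 (2.17-fold, 1.07–5.15) and Ccn2 (2.82-fold, 1.06–10.6) were higher, neither past the limit with each cell weighted the same (0.29 and 0.70). Of 12 junction genes 11 could be compared, and Cldn4, Cdh1 (2.89-fold, 1.66–5.50) and Cldn7 (2.29-fold, 1.17–5.10) were higher and 0 lower, again against 9.78% higher over all genes.

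Lists of stress, cell cycle, immune and signalling genes each had between 1 and 7 members that could be compared, so their counts are small beside the 9.78% higher and 7.75% lower over all genes. On the p53 and senescence list 4 of 17 genes could be compared and 0 were called, with a median log2 ratio of 0.00 that reached 1.51 with each cell weighted the same. On the endoplasmic reticulum stress list 1 of 6 compared genes was higher, the calcium-binding chaperone gene Calr (2.48-fold, 1.45–4.61), while Hspa5, the central chaperone of that response, stood at 377 CPM in injured and 341 CPM in control cells. No list gene of the cell cycle was called, 1 of 12 could be compared, and Mki67, a proliferation marker, had no UMI in either set. None of 4 compared genes of glycolysis and hypoxia was called. Of the interferon list 2 of 13 genes could be compared, and Ifitm3 was lower (6.25-fold, 3.26–11.9), while Isg15 had 48 UMIs in injured and 0 UMIs in control cells below the level needed for comparison. For antigen presentation, Tapbp, which loads peptide on class I molecules, was higher among 5 compared genes (3.199-fold, 1.59–7.52), and Cd74, the class II invariant chain, was 3.87-fold higher (2.62–5.97); Cd74 is also a gene of B cells. Among 7 compared immediate early genes Jun, Fos and Dusp1 were higher and Ier3 lower, and of the 3 higher genes 1, Dusp1, also passed in both other ways of taking the level. Among 6 compared signalling ligands Bmp4 and Hbegf were higher and 0 lower, and Bmp4 did not pass at equal weight per cell (0.61).

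The 10 genes with the highest log2 ratios were Gclc, Hp, Sprr1a, Mt1, Clu, Kcne2, Nupr1, Ptgs1, Sfn and Adgrg1, of which 7 had no UMI in control cells. Gclc, the catalytic subunit of the enzyme that limits glutathione synthesis, had 357 UMIs in 23 of 38 injured cells and 0 in control cells, at least 16.6-fold higher. Mt1, a metal-binding metallothionein, had 202 UMIs in 22 injured cells and 0 in control cells, at least 9.37-fold higher; B cells held 303 CPM of it in the injured library, and 34.7 CPM in the control library. Sprr1a, a small proline-rich protein of squamous epithelia, had 207 UMIs, all in 9 injured cells, at least 9.60-fold higher, and had no UMI in AT2-gated, secretory-gated or B cells of either library. The acute phase gene Hp (haptoglobin) had 457 UMIs in 20 injured cells and 1 UMI in control cells. Ptgs1, encoding cyclooxygenase-1 (98 UMIs in 22 cells), the adhesion receptor gene Adgrg1 (92 UMIs in 22 cells) and the potassium channel subunit gene Kcne2 (109 UMIs in 16 cells) had 0 UMIs in control cells and were at least 4.54-fold, 4.27-fold and 5.05-fold higher.

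The 10 genes with the lowest log2 ratios were Igfbp2, Igfbp6, Hpgd, Tppp3, Hist1h2bc, Cavin2, Cav1, Depp1, Egfl7 and Cyp4b1. Hpgd, which breaks down prostaglandins, had 0 UMIs in injured cells and 18 UMIs in 8 control cells, at least 43.1-fold lower. Igfbp6, another growth factor binding protein gene, had 3 UMIs in injured and 36 UMIs in control cells, a ratio of 86.3-fold lower (27.3–438). Cavin2, a caveolar coat protein gene, was 15.1-fold lower (8.77–26.7), and Egfl7, a gene of endothelial cells and on the endothelial list, 15.4-fold lower (5.91–44.7), from 7 UMIs in injured and 15 UMIs in control cells. Tppp3, a tubulin-binding protein gene on the ciliated cell list, had 12 UMIs in injured and 43 UMIs in control cells. The other 5 ciliated genes had 0 UMIs in control cells. In injured cells the whole ciliated list summed to 23 UMIs, with 3 of its 6 genes at 0. All 22 control UMIs of Depp1 lay in the deepest control cell, and without that cell its log2 ratio was 1.35. The part of endothelial RNA and of the deepest cell in these 10 values was not tested gene by gene, beyond the values given.

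Markers of other cell types differed between the sets in both directions. Scgb1a1, limited by the gate, summed to 330 CPM in injured and 2627 CPM in control cells, against 1456 CPM in injured-library B cells and 3073 CPM in control-library B cells. Lyz2, a macrophage gene also expressed by AT2 cells, was lower at 94.9 CPM in injured and 358 CPM in control cells. Msln, on the mesothelial list, had 97 UMIs in 14 injured cells and 3 UMIs in 1 control cell, while the 5 other mesothelial genes had 0 UMIs in both sets.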

How the data were processed

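The files held UMI counts for 32285 genes in each cell barcode, as whole numbers that the authors deposited without normalization; the file headers name Cell Ranger 4.0.0. Builds GRCm38 and mm10 stand in the submitters' processing notes, beside STAR 2.7.2c, featureCounts 1.6.3 and 2 versions of DESeq2 (1.26.0, 1.28.1), whose role for these libraries is not stated. The 38 symbols on more than 1 gene ID were left out. Gene positions are from GENCODE M21. Members, lists and comparisons were chosen with earlier results of these data known, so no list is independent support.

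Levels are UMIs summed over gated cells of a library, in CPM; they carry exact Poisson intervals, ratios with exact conditional intervals and shares with exact Clopper-Pearson intervals at 95%. A count of 0 was bounded at 3 counts. With 1 library per group no test was run. Cells were thinned to 1000 UMIs for shares and correlations, which left out 8 injured and 15 control cells. Doublets were scored per library among 40 neighbours and the top 0.8% per 1000 cells marked (1.88% of injured and 1.88% of control cells). B cells had at least 3 UMIs of Cd79a and Cd79b and none of Epcam; secretory-gated cells had Scgb1a1 at 300 per 10000 or more. Named genes were the gate genes, Hopx, Krt8, Cldn4, Clu and Sfn, the 5 most abundant genes of each list, the 10 highest and 10 lowest log2 ratios (without mitochondrial, ribosomal, haemoglobin, unnamed, sex-linked, immunoglobulin and T cell receptor genes) and the 10 genes most like Krt8. Further members of the lists were named after their values were seen, mostly because they were called, and 1 listed gene is not reported here. The procedure was tested on simulated data. Python 3.11.15, numpy 2.4.6, scipy 1.17.1 and scikit-learn 1.9.0 were used.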

Additional observations from a re-analysis of the deposited data

How the results depend on the processing

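No paired analysis was possible because each group had 1 library, and no replicate could be left out. Other gates, filters, pseudocounts and ways of taking the level were tried, and 2 were added after seeing the data: leaving out the deepest control cell and using members under 2000 UMIs alone. Removing cells marked as doublets took out no AT1-gated cell, so that setting could change no value. Of 650 recomputed values, which include that setting, 18 newly passed the 2-fold limit in the same direction and 8 no longer passed it. The sign changed in 75, of which 56 were log2 ratios and 19 correlations; 1 of the 56 (Itgb6) had been past the limit, and the others had been within 0.402 of 0. The number of genes called higher, 183, became 280 with each cell weighted the same, 310 with cells thinned to 1000 UMIs, 89 with 100 CPM added, 387 with a minimum of 50 CPM, 1371 with at least 1 count and 291 without the deepest control cell. The number called lower, 145, became 359, 565, 53, 313, 687 and 274 under the same settings. The median log2 ratio of AT1 genes outside the gate, -0.56, passed 2-fold with thinned cells (-1.34), without the deepest control cell (-1.22) and in members under 2000 UMIs (-1.50). Under the other settings it stayed inside that limit and below 0. The transitional median kept to 1.02 to 2.74 and the AT2 median to 1.38 to 4.53 over 20 settings. The difference of shares, 0.510 percentage points, ranged from 0.0202 (mitochondrial share up to 25%, 41 cells in each library) to 0.980. Itgb6 reversed to a log2 ratio of -3.43 in members under 2000 UMIs, where 0 of 11 injured cells held it. Krt8 lay just inside the limit (0.98) with a gate floor of 40 UMIs per 10000, where 29 injured and 16 control cells remained. The AT1 sum's correlation with Krt8 ranged from -0.30 to 0.19 and with Clu from -0.15 to 0.30. The cause of these shifts was not tested. Depth limits all values of the control set, where 1 UMI is 17.1 CPM.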
